A study of Saccharomyces cerevisiae with 2 samples.

Results

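Heterozygous yeast deletion strains for 63 genes of pre-mRNA splicing and related Sm and Lsm proteins were followed among 5325 gene symbols on a tag array. The genes were taken by symbol: PRP, SMB, SMD, SME, SMX, LSM, SNU, CWC, SYF, CUS, MUD, LUC or SNP followed by a number, plus DBR1, CLF1, CEF1 and BRR2, with PRP20 left out. Each of the 63 symbols belonged to 1 strain, and all 63 strains had a value for both of their tags on both arrays. Their symbols were spelled alike in the RefSeq gene table for 63 of 63. Among them, LSM1 acts in cytoplasmic mRNA decay and LSM12 is not a subunit of the Lsm rings, so the name "splicing genes" does not cover these strains strictly. PRP43 and SNU13 also act in the making of ribosomes.

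Per the labels, a pool of 5896 diploid Saccharomyces cerevisiae knockout strains, each lacking 1 copy of a gene, received one of a pair of cassettes. In the test pool, tub1D::URA3 replaced a copy of TUB1, and in the control pool, ura3D::URA3 restored URA3 at its own locus. Both pools were grown for 2 days at 30 °C without uracil, their tags were amplified from genomic DNA, and control tags (Cy5) were hybridised together with tub1 tags (Cy3). This was done in experiments 1 and 2, which make up 1 group of 2 arrays with the same dye orientation. Every strain on the array thus carries its own single deletion in both pools, and only the test pool also has a single copy of TUB1. Each strain keeps 1 intact copy of its splicing gene, so the values concern a lowered gene dose and not the absence of the protein. The cassette selects transformants, so a tag measures the transformed cells of a strain that were in the pool at harvest.

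Pre-mRNA splicing removes introns in the spliceosome, which is built on each intron from small nuclear ribonucleoproteins (snRNPs). U1 binds the 5′ splice site and U2 the branch point. The U4/U6.U5 tri-snRNP then joins, RNA-dependent ATPases rearrange the RNA, and the Prp19-associated complex stabilises the active centre for both chemical steps. Few budding yeast genes hold an intron, but the genes of both alpha-tubulins, TUB1 and TUB3, do.

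Values are log2 ratios per tag, with the deposited sign and centred on the median of each array and tag set. A strain's value is the mean of its first and second tag, given as mean ± SD over n = 2 arrays. Which pool is the numerator of the ratio is not stated. Because the control was labelled with the red dye and GenePix usually divides red by green, a positive value likely stands for fewer tags of that strain in the tub1 pool. The TUB1 strain could not settle this, because its tags hold no value. Strains are therefore called positive or negative here. The labels do not say whether the experiments were separate transformations, so p-values reflect the spread of a pair of arrays that may be technical repeats.

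The splicing strains lay on both sides of 0. Of 63 strains, 24 were positive on both arrays and 26 were negative on both, against 32.7% and 41.7% of all 5219 strains measured on both arrays. The shares among splicing strains were 38.1% and 41.3%, and 13 strains had opposite signs. Their median log2 ratio was -0.04 (-0.08 on array 1 and 0.03 on array 2), and that of all strains was -0.09. The interquartile range of the splicing strains ran from -0.46 to 0.31, and that of all strains from -0.54 to 0.23. On both arrays 31 of the 63 lay within 0.5 of 0, as did 47.2% of all strains. The counts by sign depended on the centring. Without it, 20 of the 63 were positive and 30 negative on both arrays, against 1391 and 2533 of all 5219 strains.

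**Figure D1:**
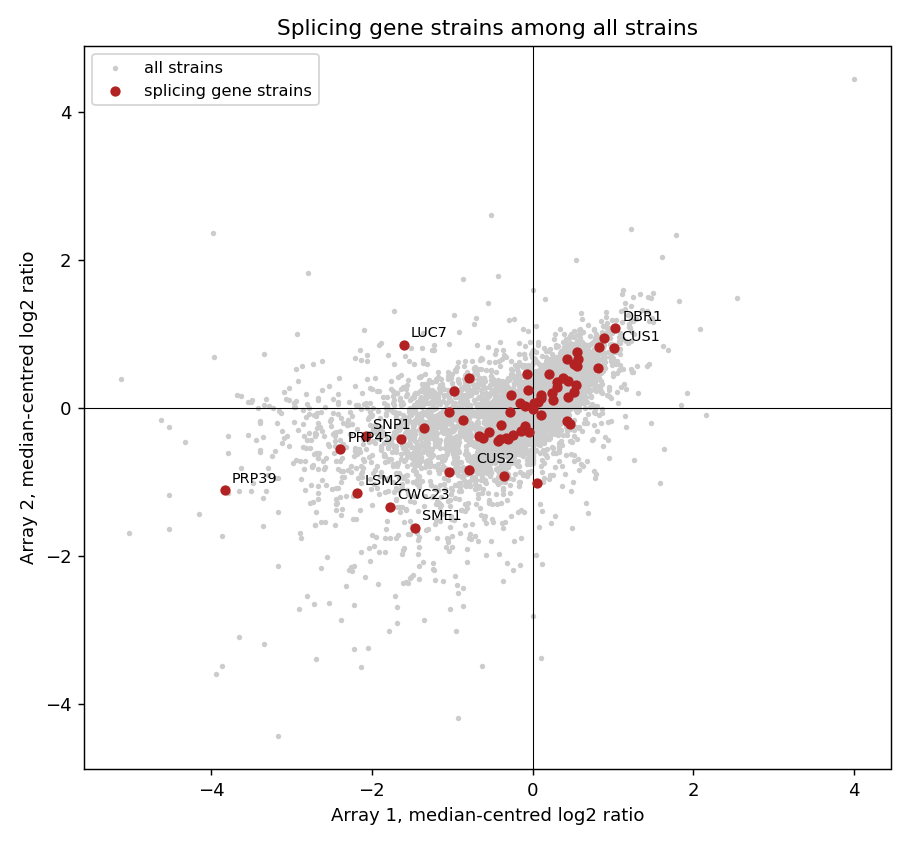
Each point is a strain, with its median-centred log2 ratio on array 1 (x axis) and on array 2 (y axis); grey points are all 5219 strains and red points the 63 splicing gene strains. The red points run from PRP39 at -3.83 and -1.11 to DBR1 at 1.03 and 1.08, inside the range of all strains, and LUC7 has opposite signs.

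No splicing strain passed the test. In limma's fit over all 5219 strains, with Benjamini-Hochberg adjustment, 0 splicing strains were positive and 0 negative at an adjusted p under 0.05, against 0% of all strains in either direction. The smallest adjusted p was 0.229, shared by 13 splicing strains and 717 strains in all. Unadjusted p-values under 0.05 were obtained for 10 positive and 5 negative splicing strains, against 9.12% and 11.7% of all strains. The 10 were DBR1, CWC2, CUS1, PRP18, SMX3, PRP9, CWC24, PRP24, SYF1 and PRP6. The 5 were SME1, CWC23, LSM2, PRP4 and CUS2. A ratio of at least 2-fold on both arrays was found for 1 positive strain, DBR1, and 4 negative strains, SME1, CWC23, LSM2 and PRP39, against 0.728% and 3.74% of all strains. When both tags of each array were kept as separate values, with the array as a random block, limma called 4 positive and 3 negative splicing strains at an adjusted p under 0.05, against 6.71% and 3.18% of all strains. These were CUS1, DBR1, PRP18 and SMX3 on the positive side and CUS2, PRP43 and SME1 on the negative side. The block's correlation was estimated below 0, at -0.29, which narrows the errors. On the same 4 tag values, with the tag set as the block or with no block, limma called 0 splicing strains, with smallest adjusted p-values among them of 0.0989 and 0.0641.

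**Figure D2:**
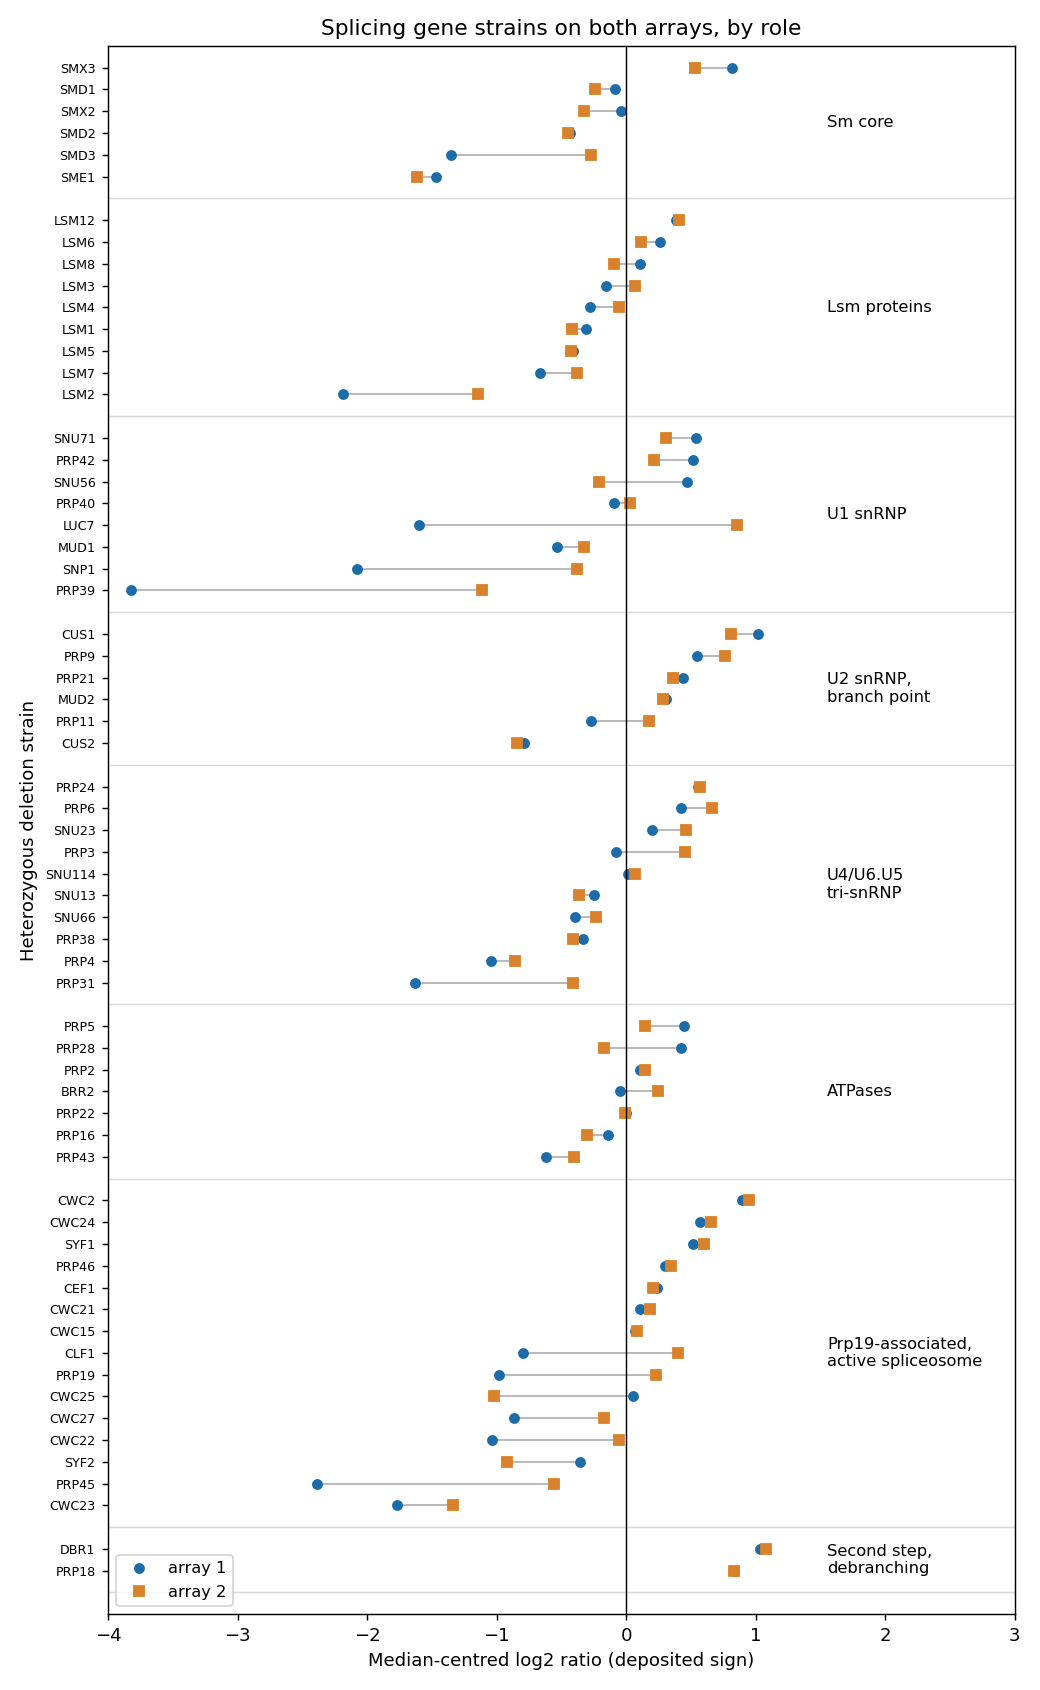
Median-centred log2 ratio (x axis) of each of the 63 strains (rows) on array 1 (blue circles) and array 2 (orange squares), grouped by the role of the deleted gene and ordered by mean. Both strains of the last group and 4 of 6 U2 strains are positive on both arrays, 5 of 6 Sm strains are negative on both, and the longest lines belong to PRP39, LUC7, PRP45 and SNP1. Over all 5219 strains, 32.7% are positive and 41.7% negative on both arrays.

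The most positive splicing strain lacked a copy of DBR1, the enzyme that opens the branched intron lariat after splicing. Its log2 ratio was 1.03 on array 1 and 1.08 on array 2, a mean of 1.05 ± 0.03 or 2.08-fold, and it ranked 45 of 5219 strains (limma adjusted p = 0.229). Its tags stood at 1.64 and 0.42 on array 1 and at 1.19 and 0.97 on array 2, all positive. PRP18, a factor of the second chemical step, had 0.83 on either array (0.83 ± 0.00, rank 128), with tags at 0.30 and 1.36 and at 0.68 and 0.98. For both strains the tags of array 1 lay farther apart than those of array 2, and the higher tag differed: the first for DBR1, the second for PRP18.

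DBR1 and PRP18 were also among the 6 splicing strains whose tags were printed in 6 spots each, so that 24 spots could be set side by side. All 24 spots of DBR1 were positive, from 0.31 to 1.71 with a median of 1.07. All 24 of PRP18 were positive too, from 0.19 to 1.46 with a median of 0.89. For 3 further strains all 24 spots were negative. SYF2, a protein of the Prp19-associated complex, ranged from -1.96 to -0.06, MUD1, a U1 protein, from -1.10 to -0.06, and LSM1, part of the cytoplasmic decay ring, from -0.79 to -0.06. MUD2, which binds near the branch point, had 18 positive and 6 negative spots. Among 762 strains with 24 spot values, 12.2% were positive in all spots and 9.71% negative in all. Spots of a strain share its tags and hybridisation, so they show how evenly a tag was read and are not replicates of the experiment.

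**Figure D3:**
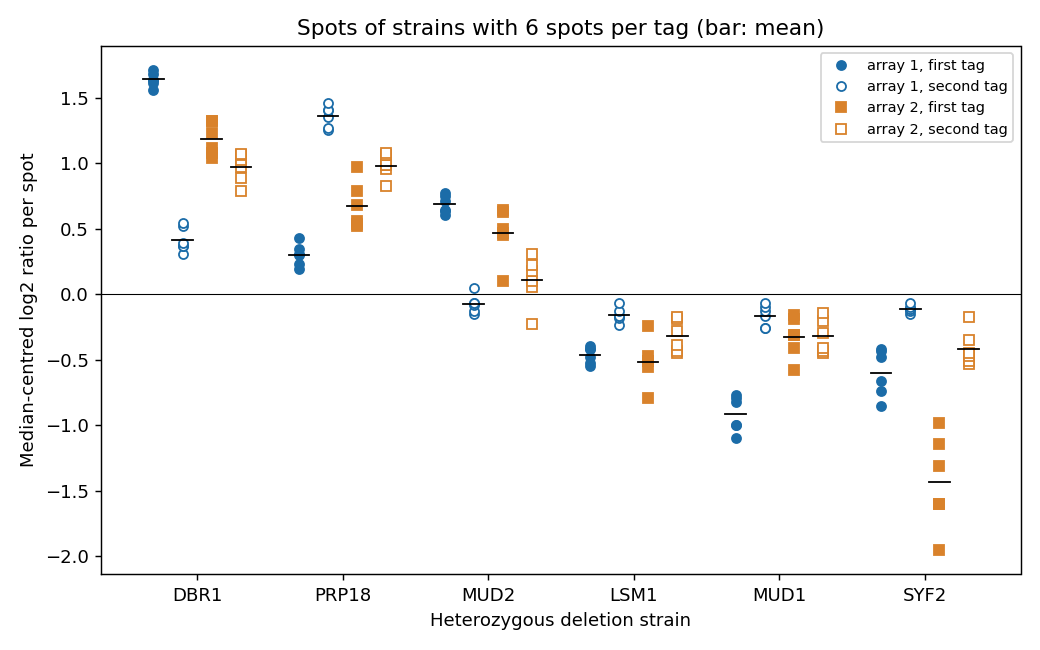
Median-centred log2 ratio of every spot (y axis) for the 6 splicing strains with 6 spots per tag, with array 1 as blue circles, array 2 as orange squares, the first tag filled, the second open and a bar at each mean. DBR1 and PRP18 lie wholly above 0, LSM1, MUD1 and SYF2 wholly below, and MUD2 on both sides. On array 1 the tags of DBR1 and of PRP18 form separate clusters of spots.

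Strains of the U2 snRNP and the branch point that the symbol rule matched numbered 6. Of the 6, 4 were positive and 1 negative on both arrays, against 32.7% and 41.7% of all strains. The median of the 6 was 0.35 over the means, 0.37 on array 1 and 0.33 on array 2. Other U2 and branch point strains, outside the rule, did not share this. MSL1, HSH155, MSL5 and IST3 were negative on both arrays. Of these, IST3 was almost at 0 on array 1 (-0.002), and MSL5 had a low second tag on array 1 (-2.20). The first tag of MSL5 was positive on both arrays, at 0.33 and 0.11. LEA1 and, with centred ratios, HSH49 were positive on both arrays, and RSE1 and RDS3 had opposite signs. For RSE1 the second tag had no value on array 2, and its first tag was -0.22 on array 1 and 0.15 on array 2. CUS1, a subunit of the SF3b part of U2, had 1.01 on array 1 and 0.81 on array 2 (0.91 ± 0.15). Its 4 tag values were 1.13, 0.89, 0.98 and 0.64. It was the 1 splicing strain with every tag at or above 0.5, a pattern found in 3.01% of 5191 strains with both tags on both arrays. CUS2, which binds U2 RNA and helps it to fold, lay on the other side, with -0.79 and -0.85 (-0.82 ± 0.04). All its tags lay between -0.94 and -0.64. CUS1 and CUS2 thus had opposite signs in all of their tag values.

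The SF3a subunits of U2, encoded by PRP9, PRP11 and PRP21, did not share a value. PRP9 had 0.55 and 0.76 (0.66 ± 0.15), of which its second tag gave 1.11 and 1.06 and its first -0.02 and 0.47. PRP21 had 0.44 and 0.36 (0.40 ± 0.05), with all tags between 0.29 and 0.55. PRP11 stood at -0.27 on array 1 and 0.18 on array 2, on either side of 0. MUD2, the yeast relative of the U2 auxiliary factor, had 0.31 and 0.29 (0.30 ± 0.01).

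U1 snRNP strains included the lowest of the 63. Positive on both arrays were 2 of 8 and negative 3 of 8, and the group's median was -0.20 (array 1 -0.32, array 2 -0.09). PRP39, a U1 protein that pairs with Prp42, had the most negative mean of all 63 strains, with -3.83 on array 1 and -1.11 on array 2 (-2.47 ± 1.92). It was the 24th lowest of 5219 strains, its 4 tags were all negative (-4.94 and -2.72, then -1.79 and -0.43), and with this spread between arrays limma's adjusted p was 0.261. PRP42, its partner, had 0.51 and 0.21 (0.36 ± 0.21), so the strains of this protein pair had opposite signs on both arrays. By gene order, PRP39 is the nearest of the 63 genes to TUB1, with 40 protein-coding genes between them.

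SNP1, a core U1 protein, and LUC7, which acts in 5′ splice site choice, each rested on a single low tag of array 1. For SNP1 the first tag was -4.20 on array 1 and -0.60 on array 2, while the second was 0.05 and -0.16, giving -1.23 ± 1.20. For LUC7 the first tag was -3.72 on array 1 but 0.90 on array 2, and the second was 0.51 and 0.81. The LUC7 strain therefore averaged -0.37 ± 1.74, although 3 of its 4 tag values were positive. Elsewhere in U1, MUD1 had -0.54 and -0.32, SNU71 had 0.54 and 0.30, PRP40 had -0.10 and 0.03, and SNU56 had 0.47 and -0.21.

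Among strains of the U4/U6 and U5 snRNPs and the tri-snRNP, 4 of 10 were positive on both arrays and 5 of 10 negative, around a median of -0.13. PRP24, which anneals U4 with U6 RNA, had 0.56 and 0.57 (0.56 ± 0.01), and each of its tags repeated closely between arrays: the first gave 0.79 and 0.78, the second 0.32 and 0.37. PRP6, which bridges U5 and U4/U6, had 0.42 and 0.67 (0.54 ± 0.17). PRP4, a U4/U6 protein, had -1.04 and -0.86 (-0.95 ± 0.13), but its first tag gave -2.52 and -1.96 and its second 0.44 and 0.23. The sign of PRP4 thus depended on the tag, in the same way on both arrays. PRP3, which binds Prp4, had -0.08 and 0.46, and PRP31, another U4/U6 protein, had -1.63 and -0.41 (-1.02 ± 0.86) with 4 negative tags.

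The other strains of this group were quieter. SNU114, the GTPase of U5, stood at 0.04 ± 0.04, and SNU23 at 0.33 ± 0.18. PRP38, required to activate the spliceosome, had -0.37 ± 0.06, SNU66 had -0.31 ± 0.11, and SNU13, which binds a kinked turn in U4 RNA, had -0.30 ± 0.08. All 4 tags of PRP38, SNU66 and SNU13 were negative. PRP8, which belongs to this group and whose symbol would match the rule, was not among the 63 matching symbols of the platform table.

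The RNA-dependent ATPases, which drive each rearrangement of the spliceosome in turn, lay nearest to 0. Of 7 strains, 6 were within 0.5 of 0 on both arrays, 2 were positive and 2 negative on both, and the median was 0.10 over the means (array 1 0.00, array 2 -0.01). The group ran from PRP5, which acts when U2 joins (0.30 ± 0.21), to PRP43, which takes the spent spliceosome apart (-0.51 ± 0.15). PRP43 had -0.62 on array 1 and -0.40 on array 2, with all tags between -0.67 and -0.35. BRR2, which unwinds U4 from U6, had 0.10 ± 0.21, PRP28, which displaces U1, 0.13 ± 0.42, and PRP2, which precedes the first step, 0.12 ± 0.03. PRP16, which precedes the second step, had -0.22 ± 0.12, and PRP22, which releases the mRNA, was at 0.00 and -0.01. Their single tags scattered more than these means: those of PRP22 were 0.67 and -0.67 on array 1.

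The Prp19-associated proteins and other proteins of the active spliceosome made up the largest group, and its strains divided. Of 15 strains, 7 were positive and 5 negative on both arrays. The median was -0.20 over the means, but 0.06 on array 1 and 0.18 on array 2. CWC2, which contacts U6 RNA, had 0.89 and 0.95 (0.92 ± 0.04), where the second tag gave 1.21 and 1.60, the first 0.57 and 0.29. CWC24, a zinc finger protein that acts before the first step, had 0.57 and 0.66 (0.61 ± 0.06). SYF1, a scaffold of the complex, had 0.51 and 0.60 (0.56 ± 0.06). These strains had all tags positive, from 0.14 upward.

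On the negative side of this group, CWC23, a J-domain protein, had -1.77 and -1.33 (-1.55 ± 0.31). Its tags were uneven, with -3.72 and 0.18 on array 1 and -0.93 and -1.74 on array 2. PRP45, the yeast relative of SKIP, had -2.39 and -0.56 (-1.47 ± 1.29), and here the second tag was at -4.52 on array 1 while its 3 other values lay between -0.77 and -0.26. SYF2 had -0.35 and -0.92 (-0.64 ± 0.40) with 4 negative tags.

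PRP19 itself, the ubiquitin ligase that gives the complex its name, had -0.98 on array 1 and 0.23 on array 2, and the scaffold protein CLF1 had -0.79 and 0.40. In either strain the first tag of array 1 was low, at -2.06 and -2.13, and the other 3 tags were positive. CWC25, a factor of the first step, went the other way, at 0.06 and -1.02. CWC22, needed for the action of Prp2, had -1.03 and -0.06, and CWC27 had -0.87 and -0.17. Their first tags were low on array 1 too, at -1.94 and -2.20. The second tag of CWC27 was positive on both arrays, at 0.47 and 0.07, and that of CWC22 had -0.13 and 0.13. CEF1 (0.22 ± 0.02), PRP46 (0.32 ± 0.03), CWC21 (0.14 ± 0.05) and CWC15 (0.08 ± 0.01) were slightly positive on both arrays, CWC21 and CWC15 only with centred ratios.

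The Sm proteins form the ring around the RNA of U1, U2, U4 and U5. Of 6 strains measured, 5 were negative on both arrays and 1 was positive, against 41.7% and 32.7% of all strains. All 4 tags were negative in 3 of the 6, against 20.1% of strains with both tags. The median was -0.31 (array 1 -0.26, array 2 -0.30). SME1 had -1.47 and -1.62 (-1.54 ± 0.11), or 2.91-fold, and the smallest unadjusted p of the 63 strains (limma adjusted p = 0.229). Its 4 tags were -1.77, -1.17, -2.28 and -0.96. SMX3, the F subunit, which lies beside the E subunit in the ring, was the exception, with 0.82 and 0.53 (0.68 ± 0.20) and tags from 0.40 to 1.11. SME1 and SMX3 thus had opposite signs in all of their tag values.

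SMD3 had -1.35 and -0.28 (-0.81 ± 0.76), again with a low first tag on array 1 (-2.35). SMD2 had -0.43 and -0.45 (-0.44 ± 0.01), where the first tag gave -0.88 and -0.65, the second 0.02 and -0.26. SMD1 (-0.17 ± 0.11) and SMX2 (-0.18 ± 0.20) were nearer to 0. SMX2 stood at -0.04 on array 1, and its second tag was 0.37 on array 1 and 0 on array 2. SMB1 was not among the 63 matching symbols of the platform table.

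The Lsm proteins form related rings, Lsm2 to Lsm8 on U6 RNA in the nucleus and Lsm1 to Lsm7 on mRNA in the cytoplasm. Of 9 strains, 5 were negative and 2 positive on both arrays, against 41.7% and 32.7% of all strains. The median of the 9 was -0.17. LSM2 had -2.18 and -1.14 (-1.66 ± 0.73), and all its tags lay at or below -0.82 (-1.17 and -3.20, then -1.47 and -0.82). With SME1 and CUS2 it was 1 of 3 splicing strains with every tag at or below -0.5, found in 2.83% of all strains with both tags. No other Lsm strain came near it: 7 of 9 were within 0.5 of 0 on both arrays.

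LSM7 had -0.67 and -0.38 (-0.52 ± 0.21), LSM5 had -0.41 and -0.42 (-0.42 ± 0.01), and LSM1, the cytoplasmic subunit, had -0.31 and -0.42 (-0.36 ± 0.08). These strains had 4 negative tags each. LSM8, the nuclear counterpart of LSM1, stood at 0.11 and -0.10, LSM3 at -0.15 and 0.07, and LSM4 at -0.28 and -0.06. LSM6 (0.19 ± 0.10) and LSM12 (0.39 ± 0.02) were positive.

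The tags decided how far single strains could be read. All 4 tag values were positive in 15 of 63 strains and negative in 18, against 20.4% and 20.1% of the 5191 strains with both tags. Tags lay more than 1 log2 apart, averaged over arrays, in 10 strains, against 23.6%, and the arrays lay more than 1 apart in 10, against 15.8%. The median distance between tags went the other way, at 0.512 in the splicing strains and 0.375 in all strains. Between arrays the median distance was 0.213 and 0.278. Across the 63 strains, which share pools and hybridisations and are not independent, Spearman's rho was 0.73 between arrays, 0.37 between both tags on array 1 and 0.59 on array 2. Across all strains the same values were 0.61, 0.27 and 0.38.

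**Figure D4:**
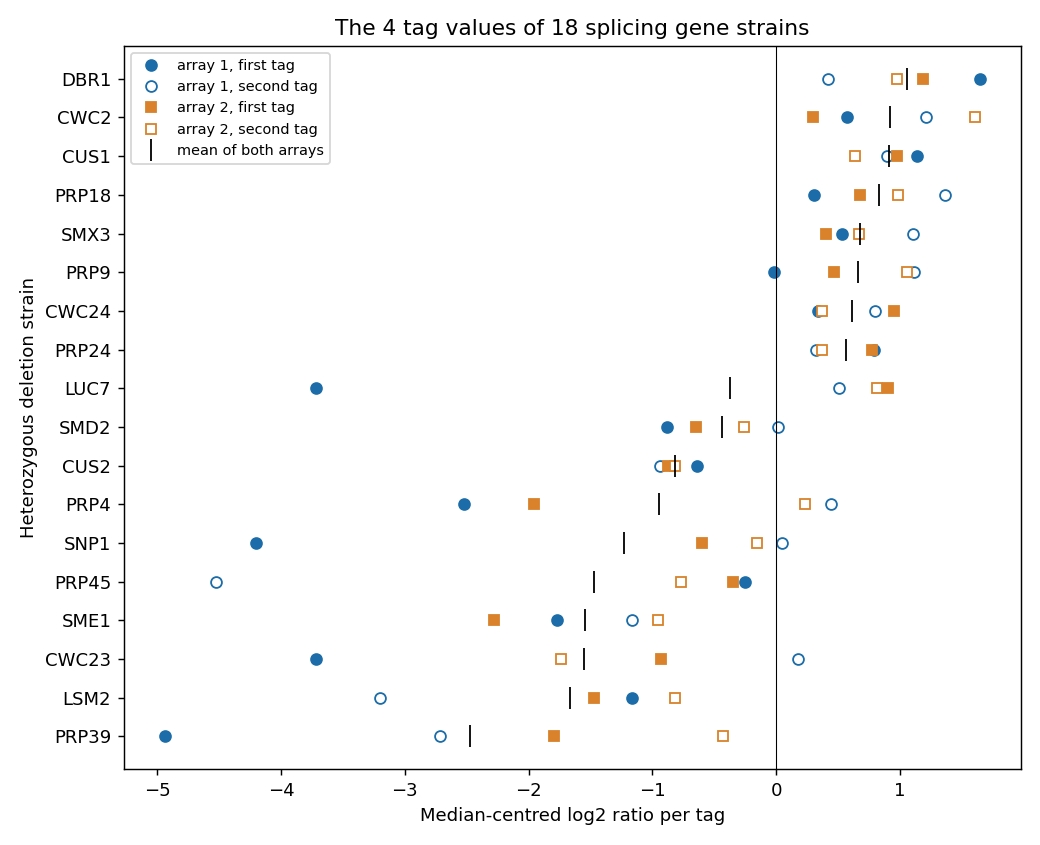
The 4 tag values (x axis, median-centred log2 ratio) of the 18 splicing strains described in most detail (rows), with array 1 as blue circles, array 2 as orange squares, the first tag filled, the second open and a black line at the mean. CUS1 and CUS2 have their values close together, PRP4 splits by tag, and single low values of array 1 set LUC7, SNP1 and PRP45 apart.

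Most strongly negative tags came from array 1. At or under -1.5 there were 15 of 126 tags on array 1 and 5 on array 2, or 11.9% and 3.97%, close to the 14.4% and 3.88% of all tags. Of those 15, 12 belonged to the first tag set and 3 to the second, or 19.0% and 4.76% of the tags in each set, against 13.1% and 15.8% over all strains. On array 2, 3 of the 15 were as low and 3 were positive, where 17.8% and 18.2% of all low tags of array 1 were so. The 3 that repeated were the first tags of PRP39, SME1 and PRP4. The 3 that turned positive were those of LUC7, PRP19 and CLF1. No splicing strain had a spot at the smallest ratio in the data, as 31 of all strains did. The part of this low tail of array 1 in the negative means was not tested. On array 2 alone 32 splicing strains were positive and 31 negative, and on array 1 alone 29 and 34.

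A few of the genes lie close together on a chromosome. PRP38 and SMD1 are next to each other, and their strains had -0.37 and -0.17. PRP28 and SNU56, with 1 gene between them, had nearly the same values, 0.42 and 0.47 on array 1 and -0.17 and -0.21 on array 2. PRP4 and SMX3, with 3 genes between them, had -0.95 and 0.68, but the second tag of PRP4 was positive on both arrays, at 0.44 and 0.23. PRP42 and SNU56, with 4 genes between them, had 0.51 and 0.47 on array 1 and 0.21 and -0.21 on array 2. Close neighbours therefore included strains with like means and a pair with opposite means, of which PRP4 depended on the tag.

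Of 33 other splicing genes whose symbols fall outside the rule, 32 were measured, and these too lay around 0. Their median was -0.06. On both arrays 7 were positive, 12 negative and 19 within 0.5 of 0. These shares were 21.9%, 37.5% and 59.4%, against 32.7%, 41.7% and 47.2% of all strains. None passed limma's adjusted threshold, and unadjusted p-values under 0.05 were obtained for 1 positive and 2 negative strains. Such p-values were thus rarer here, at 3.1% and 6.25%, than among all strains, at 9.12% and 11.7%. The positive one was STO1, a subunit of the nuclear cap-binding complex, with 0.68 and 0.47 (0.58 ± 0.15). The negative ones were MSL1, a U2 protein, with -0.66 on either array (-0.66 ± 0.00), and HUB1, a ubiquitin-like modifier of the tri-snRNP, with -0.45 and -0.67 (-0.56 ± 0.15). Of the strains chosen after their values were seen, RSE1, SPP381 and SUB2 were below -1.5 on array 1 but at 0.15, -0.01 and 0.59 on array 2. Each rested on a low second tag of array 1, at -2.94, -3.52 and -3.72. Their first tags on array 1 were -0.22, -0.08 and 0.26. The second tag of RSE1 had no value on array 2, so its 0.15 is the first tag alone. HSH155, a partner of Cus1 in SF3b, had -0.20 ± 0.15.

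For scale, the strain lacking a copy of TUB3, the other alpha-tubulin gene with an intron, had 3.99 and 4.45 on the same arrays. The most positive splicing strain, DBR1, was 3.17 below it on the log2 scale.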

How the data were processed

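The authors deposited log2 ratios per spot of 2-colour tag arrays; images were analysed with GenePix 5.1, per the labels. For direction, background correction and normalization the labels say nothing. Depth is unknown, intensities per spot do not enter, and the number of arrays (2) limits the precision. All 40008 values were the log2 of a ratio within 0.001 of a hundredth. A ratio of 1e+06, in 2 values, was treated as missing. The platform table gives 1 gene symbol to 18794 of 22575 probes, several to 0 and none to 3781. Named probes pair at a distance of 10971 numbers, which gave a first and a second tag set; 105 symbols with several strains were left out. Spots were averaged per tag, the median of every array and tag set was subtracted (shifts of 0.12 and 0.04), and tags were averaged per array. Limma 3.58.1 in R 4.3.3 tested 5219 strains against 0 (intercept, eBayes, two-sided, Benjamini-Hochberg, threshold 0.05). This step was also run on simulated data. There recovery was required only at a spread between arrays of 0.05, below the median SD of 0.197 over all strains. It therefore does not show which differences could pass at the spread of these data. Tables used Python 3.11.15 and pandas 2.3.3, plots matplotlib 3.10.9. Gene order came from RefSeq assembly R64, used for neighbours only. Tag sequences were not used here.

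Given in full were the 8 highest and 8 lowest strains by the nearer of both arrays, those with every tag 0.5 or more from 0 on 1 side, and the 4 widest tag and array gaps; the others are given by role. The genes and lists were chosen with earlier results of these data known. Alternatives changed the centring, spot summary, tags, smallest ratios, model and arrays.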

Additional observations from a re-analysis of the deposited data

How the results depend on the processing

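With 2 arrays and 1 residual degree of freedom per strain, single strains could hardly pass. The count of 0 strains, and 0 splicing strains, at an adjusted p under 0.05 in limma was the same without centring, after quantile normalization, with spot medians, with either tag set alone, without the smallest ratios, with both tags required, without moderation and with robust eBayes. With both tags kept as 4 values and the array as a random block, limma called 516 strains (350 positive and 166 negative) and 7 splicing strains: CUS1, DBR1, PRP18 and SMX3 positive, CUS2, PRP43 and SME1 negative, at adjusted p from 0.0269 to 0.0486. The correlation in that block was estimated at -0.29, which makes the standard errors smaller than those of independent values. With the tag set as the block there were 3 calls (1 positive and 2 negative), and with no block, an alternative chosen after seeing the data, 10. Neither held a splicing strain. Without centring the median of the splicing strains was -0.12, and that of all strains -0.18. The medians over the means of all role groups kept their sign without centring and after quantile normalization. The counts by sign on both arrays moved in several groups without centring. They became 5 positive and 6 negative in the Prp19-associated group, 3 and 5 in the tri-snRNP group and 1 and 3 among the ATPases. U1 strains then counted 2 and 4, and Lsm strains 2 and 6. Leaving out an array gave medians from -0.08 (array 1 alone) to 0.03 (array 2 alone), 29 to 32 positive and 31 to 34 negative strains. Without LSM1 and LSM12, also chosen after seeing the data, the median was -0.04. Of 162 values of the 18 strains given in full, 159 kept their sign. Most of these strains were chosen for lying on 1 side of 0 on both arrays. Leaving out an array could not turn the sign of such a strain, so the count follows in large part from the choice. LUC7 was at -1.60 without array 2 but turned to 0.85 without array 1 and to 0.66 with the second tag alone, and PRP4 to 0.34 with the second tag alone; these rest on 1 low tag or on 1 tag set. No paired analysis was possible because there is 1 group. Without spot intensities, weak tags could not be told from strong ones.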
